A study of Homo sapiens with 18 samples.

Results

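The 96 genes described here are the nuclear genes of oxidative phosphorylation, read by messenger RNA sequencing in 2 human brain tumour cell lines exposed to a direct current electric field (dcEF). A gene was taken when its name began with NDUF, UQCR or ATP5, with COX followed by 4 to 8, or was one of SDHA to SDHD, and when at least 1 of its annotated transcripts was protein coding. Of the 32490 gene names in the data, 143 matched these name patterns, and the 47 without a protein coding transcript were left out. By role, 37 of the 96 genes were complex I subunits, 7 were complex I assembly factors (NDUFAF genes), 4 belonged to complex II, 9 to complex III, 16 to complex IV, 2 were NDUFA4 and its paralog NDUFA4L2 (NDUFA4 is now counted with complex IV), 19 carried the ATP5 name of complex V and 2 were read-through transcripts. ATP5S and ATP5SL were counted with complex V by name only.

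Oxidative phosphorylation takes place in the inner mitochondrial membrane. Complexes I and II pass electrons from NADH and succinate to ubiquinone, complex III passes them on to cytochrome c and complex IV to oxygen, and complex V makes ATP from the proton gradient that complexes I, III and IV build. Complex II is encoded in the nucleus alone, while the others also hold subunits encoded in mitochondrial DNA (mtDNA), and each complex needs assembly factors that are not part of the finished enzyme. Several subunits exist as paralogs that are used in different tissues, such as the muscle forms COX6A2 and COX7A1 and the testis forms COX6B2, COX7B2 and COX8C.

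U87 mg (labelled glioblastoma) and DAOY (labelled desmoplastic cerebellar medulloblastoma) are established lines, here grown as spheroidal aggregates in medium mixed with Growth-Factor-Reduced Matrigel inside a channel. They were collected after 0, 2 or 8 h of continuous dcEF at 250 V/m, and the 0 h cells served as the unstimulated control of each line. No group was kept for 2 or 8 h without the field. Changes with the field and changes with time in the channel therefore cannot be told apart here. Each of the 6 groups held 3 libraries, each from 3 pooled channels, for 18 libraries in all. The libraries of a group are biological replicates in the study's methods, picked by RNA quality control from a larger number of pools, except for DAOY at 8 h where a further pool had poor RNA. p-values measure the spread between these libraries. Libraries held 8341976 to 15610886 estimated counts. VIM and CD44 were abundant in both lines, GFAP (the glial filament protein) reached at most 3.11 TPM in U87 mg, and the cerebellar progenitor gene BARHL1 was at or near 0 in both. Of other cerebellar progenitor genes, ZIC1 was at 8.28 to 15.8 TPM in DAOY and 2.53 to 12.001 TPM in U87 mg. PAX6 was at 17.0 to 35.1 and 19.3 to 35.3 TPM in the same order. The highest values in DAOY and U87 mg were 6.92 and 0.0858 TPM for SOX2 and 0.715 and 9.25 TPM for NES. They were 0.932 and 7.195 TPM for GLI1, 1.81 and 5.03 TPM for GLI2, and 0.398 and 0.173 TPM for S100B. OLIG2 reached 1.76 and 1.404 TPM. The neuronal genes TUBB3, MAP2 and SYP reached 17.7 and 54.6, 4.01 and 11.7, and 4.91 and 2.49 TPM. Whether these levels match the labels of the lines was not tested. The leukocyte genes PTPRC and CD3E and the endothelial genes VWF and CDH5 stayed below 1 TPM in every library. The leukocyte gene CD14 reached 1.30 TPM in DAOY and 0.782 TPM in U87 mg, and PECAM1, another endothelial gene, was at 5.46 to 12.9 TPM in DAOY and at most 2.30 TPM in U87 mg.

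The oxidative phosphorylation genes were abundant in both lines. Levels between genes were compared in TPM, an abundance unit that divides by transcript length and has the same total in every library. Averaged over the 18 libraries, 51 genes were at 100 TPM or more, 35 between 10 and 100, 1 between 1 and 10, and 9 below 1 TPM. Their median was 118 TPM, against 13.7 TPM over the 15697 genes of the data with a mean of at least 1 TPM. The highest was ATP5B, the catalytic beta subunit of complex V, at 1104 TPM, followed by the small complex IV subunit COX7C at 960.0 TPM and the peripheral stalk subunit ATP5F1 at 875 TPM. Within complex I the range ran from 416 TPM for NDUFS5 to 14.8 TPM for NDUFV3, within complex II from 349 TPM for SDHB (an iron-sulphur subunit) to 69.4 TPM for SDHA (the flavoprotein), and within the NDUFAF assembly factors from 90.1 TPM for NDUFAF4 to 21.0 TPM for NDUFAF3. UQCRH led complex III at 445 TPM, and its lowest gene was the paralog UQCRHL at 0.767 TPM. The lowest genes of complexes IV and V were COX7A1 at 0.0628 TPM and ATP5EP2 at 0.107 TPM.

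Together the 96 genes made up 1.64 to 1.91% of all TPM in the 9 U87 mg libraries. In DAOY they made up 2.01% ± 0.0867 (SD, n = 3) at 0 h, 1.98% ± 0.0952 at 2 h and 1.64% ± 0.144 at 8 h. The 3 DAOY libraries at 8 h were all below the 3 at 0 h (1.55 to 1.80% against 1.95 to 2.11%), while the U87 mg groups overlapped. In DAOY the messenger RNAs from mtDNA took 11.99, 12.08 and 5.88% of TPM at 0 h and 12.02, 16.25 and 12.02% at 8 h. With mtDNA genes left out of the total, the share of the 96 genes in DAOY was 2.24 to 2.25% at 0 h and 1.79 to 2.07% at 8 h. As a share of counts, which gives long and short transcripts of 1 level unequal weight, the DAOY groups overlapped, at 0.659, 0.758 and 0.808% at 0 h and 0.684, 0.589 and 0.596% at 8 h. COX7A2, a short and abundant transcript, stood at 1641, 704 and 812 TPM at 0 h and at 701, 585 and 615 TPM at 8 h.

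**Figure D1:**
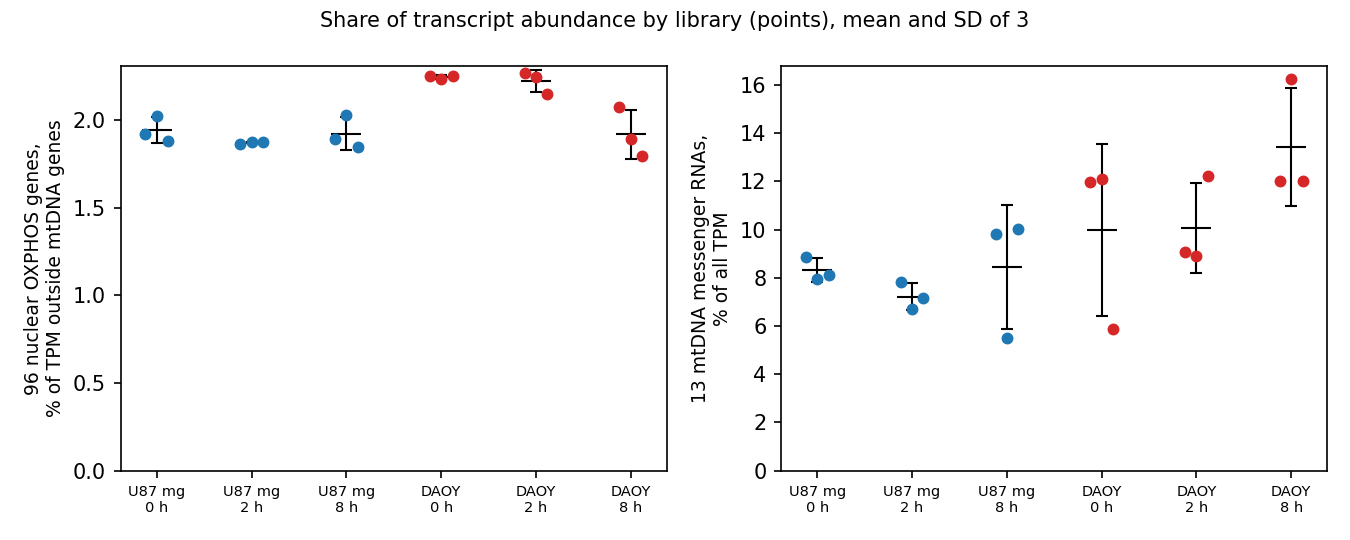
Share of transcript abundance in each of the 18 libraries (points, 3 per group) with the mean and SD of each group. Left, the 96 nuclear oxidative phosphorylation genes as a percentage of TPM outside mtDNA genes, where the DAOY libraries at 8 h (1.79 to 2.07%) sit below those at 0 h (2.24 to 2.25%). Right, the 13 mtDNA messenger RNAs as a percentage of all TPM, where the DAOY libraries at 0 h and 8 h overlap.

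The summed TPM of most complexes in DAOY was also lower at 8 h than at 0 h. Complex I summed to 5341 to 5841 TPM at 0 h and to 4166 to 4942 TPM at 8 h. Complex II went from 800.0 to 951 TPM to 657 to 713 TPM, complex IV (with NDUFA4) from 4888 to 5679 TPM to 3871 to 4398 TPM, and complex V from 6145 to 6920 TPM to 5008 to 6003 TPM. None of these 4 pairs of groups overlapped. Complex III did overlap, with 1313 to 1930 TPM at 0 h and 1438 to 1688 TPM at 8 h, as did the NDUFAF assembly factors, with 282 to 429 TPM and 269 to 298 TPM. For complex IV the highest sum, 5679 TPM in DAOY 0 h replicate 0, held 1641 TPM of COX7A2. Of the 12 tested complex IV genes other than NDUFA4, 6 had a positive and 6 a negative Log2(fold-change) at 8 h, with a median of -0.01. These sums are part of all TPM, mtDNA genes included, and are levels with no test. The tests of single genes follow.

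Of the 96 genes, 9 were too low to be tested in DAOY and in the comparison of the lines, and COX7B2 was also too low in U87 mg, which left 87 and 86 tested genes. The tissue-restricted paralogs made up much of this group. COX6A2, COX7A1, COX8C, ATP5L2 and ATP5EP2 had at most 3 counts in any library, and COX6B2 had at most 9.09. NDUFA4L2, a paralog of NDUFA4 known for its response to low oxygen, had 76 counts in DAOY 8 h replicate 2 and at most 7 in each of the other libraries. UQCRHL had 138 counts in DAOY 0 h replicate 0 and at most 6.49 elsewhere. In that library its paralog UQCRH was at its lowest count, 724 against 782 to 2088 in the others. Annotated transcripts of this pair share 252 stretches of 31 bases, so their reads may be split between them. ATP5E and ATP5EP2 share 44 such stretches and ATP5L and ATP5L2 share 81, so these are uncertain in the same way.

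For the dcEF comparisons, counts were summed per gene and tested with edgeR's quasi-likelihood test within each line, with p-values adjusted over all tested genes and an adjusted p below 0.05 counted as a call. Values per library are given as normalised CPM, counts set against the total count of the library and scaled within the line. The question was how expression changed at 2 h and at 8 h relative to unstimulated cells.

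In U87 mg, 0 of 86 oxidative phosphorylation genes were called at 2 h, where 0% of the 14106 genes tested were called, and 0 of 86 at 8 h, where 1.72% were. Their median Log2(fold-change) was -0.12 at 2 h and 0.04 at 8 h, beside -0.02 and -0.001 over all tested genes. The 2 genes with the smallest p in each direction at 2 h were lower ATP5J2 (a membrane subunit of complex V, -0.41, SE 0.15) and COX6A1 (the widely used form of a small complex IV subunit, -0.34, SE 0.13) and higher NDUFA5 (0.33, SE 0.15) and NDUFS4 (0.24, SE 0.12), both accessory subunits of complex I, each with an adjusted p of 0.495. At an unadjusted p below 0.05, 8 of 86 genes were lower and 0 higher at 2 h, a share of 9.3% where 3.93% of all genes were lower and 4.85% higher, and at 8 h 2 were lower (2.33%) and 0 higher, where 6.95% and 8.93% of all genes were. DESeq2 and limma also called 0 of these genes at each time. At 8 h the 2 with the smallest p in each direction were ATP5E (0.19, SE 0.11, adjusted p = 0.440) and NDUFS4 (0.18, SE 0.12, adjusted p = 0.533) among higher values and NDUFV3 (-0.44, SE 0.16, adjusted p = 0.209) and ATP5J2-PTCD1 (-1.28, SE 0.58, adjusted p = 0.305) among lower ones. The 95% interval of the fold change lay within 2-fold in either direction for 79 of 86 genes at 2 h and for 85 of 86 at 8 h. Leaving out U87 mg 0 h replicate 0 gave 11 calls at 2 h (10 lower and 1 higher), 12.8% of the 86 genes where 8.38% of all genes were called in that fit, so the count of 0 there rests on that library.

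**Figure D2:**
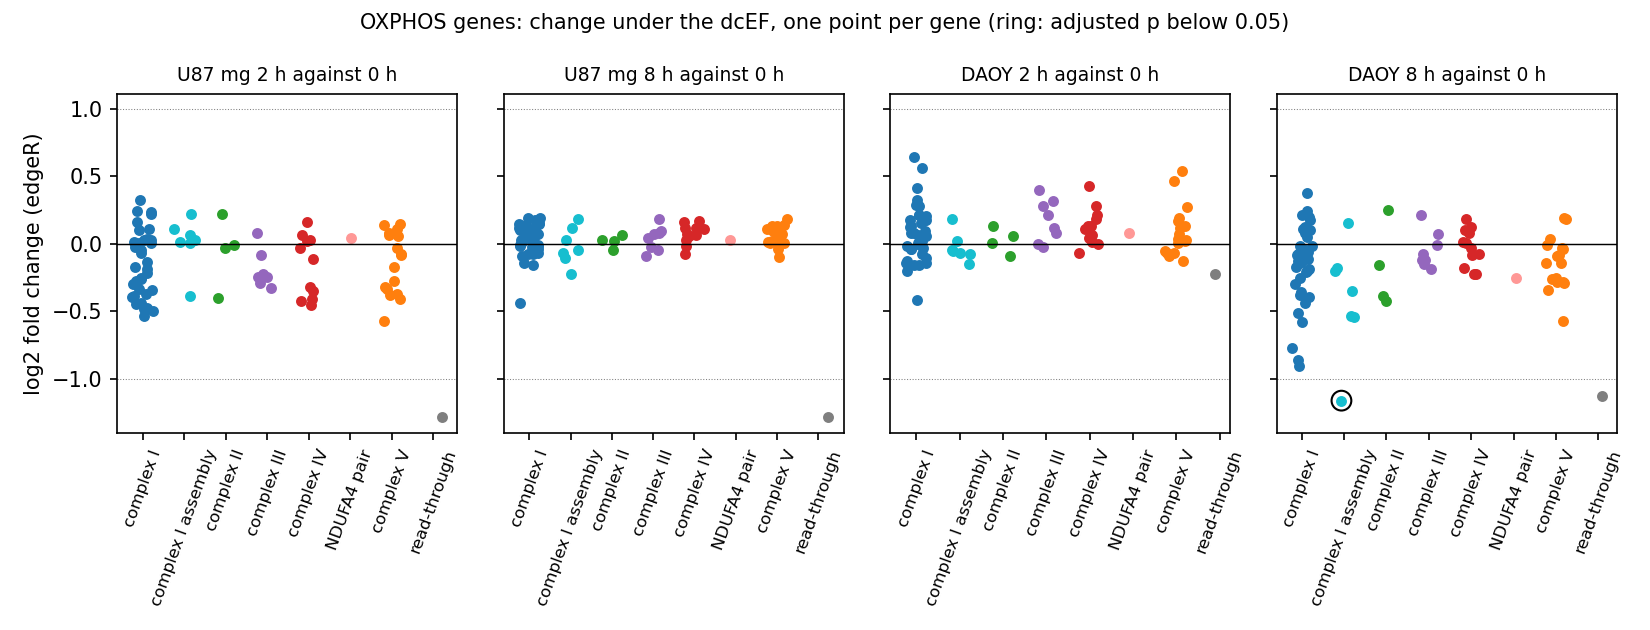
Log2(fold-change) of every tested oxidative phosphorylation gene (1 point each, grouped by role) at 2 h and 8 h against 0 h in U87 mg and DAOY. A ring marks an adjusted p below 0.05, and dotted lines mark a Log2(fold-change) of 1 and -1. The single ring is NDUFAF1 in DAOY at 8 h (-1.16), and the lone grey point near or below -1 in 3 of the panels is the read-through transcript ATP5J2-PTCD1.

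In DAOY at 2 h, 0 of 87 genes were called, where 0% of the 15396 genes tested were. The median Log2(fold-change) was 0.06, beside 0.00 over all tested genes. The differences with the smallest p were higher NDUFS7 (a core subunit of complex I, 0.64, SE 0.29) and COX5B (0.43, SE 0.28) and lower NDUFV2 (another core subunit, -0.41, SE 0.25) and NDUFS1 (the largest core subunit, -0.16, SE 0.15), each with an adjusted p of 0.999. Only NDUFS7 had an unadjusted p below 0.05, 1.15% of the genes where 2.75% of all genes did. DESeq2 and limma also called 0 of the 87, in fits that called 0.0065% and 0% of all genes. The 95% interval lay within 2-fold for 75 of 87 genes.

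In DAOY at 8 h, NDUFAF1 fell and was the single call among the 87 genes. This is 1.15% of them, where 5.85% of all 15396 tested genes were called and 3.5% were called lower. NDUFAF1 encodes an assembly factor for the membrane arm of complex I. Its gene lies on chromosome 15 at 41387349 to 41402519 on the minus strand (GRCh38, GENCODE 29). NDUFAF1 was at 33.8, 21.5 and 33.0 CPM at 0 h, 24.7, 26.5 and 28.3 CPM at 2 h and 15.1, 11.1 and 13.2 CPM at 8 h. Every DAOY library at 8 h was below every library at 0 h and at 2 h. The Log2(fold-change) was -1.16 (SE 0.21, adjusted p = 0.0177, n = 3 against 3 libraries in a fit to 9). In U87 mg NDUFAF1 was at 21.6, 17.7 and 20.8 CPM at 0 h and 20.1, 19.7 and 15.96 CPM at 8 h, and the groups overlapped. The call was lost when DAOY 0 h replicate 2, DAOY 8 h replicate 1 or DAOY 8 h replicate 2 was left out (adjusted p = 0.0561, 0.0844 and 0.0730) and when only the 6 libraries compared were fitted (adjusted p = 0.0568), with Log2(fold-change) from -1.16 to -1.04 in these fits.

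The gene next to the threshold was NDUFB5, an accessory subunit of the membrane arm of complex I. It was at 180, 140 and 148 CPM at 0 h and at 110, 115 and 103 CPM at 8 h, so the groups did not overlap, with a Log2(fold-change) of -0.51 (SE 0.13, adjusted p = 0.0502). Among positive values the smallest p belonged to NDUFA10 (0.24, SE 0.13, adjusted p = 0.310) and COX7A2L (0.19, SE 0.13, adjusted p = 0.4302), an accessory subunit of complex I and a protein that joins complexes III and IV. NDUFV2 and SDHC, shown because several other fits called them, are named after their values were seen. NDUFV2 was at 97.4, 53.3 and 76.6 CPM at 0 h and at 43.6, 44.8 and 37.1 CPM at 8 h, and SDHC, a membrane anchor of complex II, was at 217, 189 and 194 CPM at 0 h and at 150 CPM, 149 CPM and again 150 CPM at 8 h. Neither gene's groups overlapped, and neither passed the test here.

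**Figure D3:**
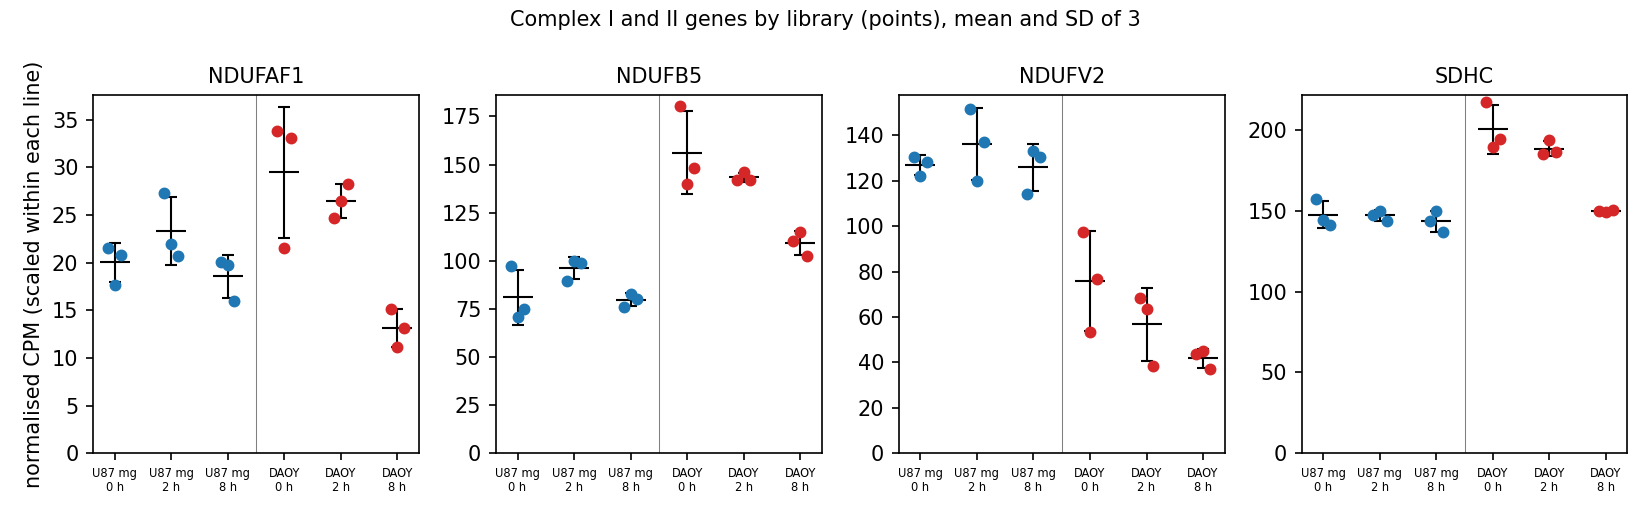
Normalised CPM of NDUFAF1, NDUFB5, NDUFV2 and SDHC in each library (points, 3 per group, scaled within each line) with the mean and SD of each group. In DAOY the 3 libraries at 8 h are below the 3 at 0 h for each gene, for example 11.1 to 15.1 CPM against 21.5 to 33.8 CPM for NDUFAF1, and only NDUFAF1 passed the test.

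Across the 87 genes in DAOY at 8 h, 64 values were negative and 23 positive, with a median Log2(fold-change) of -0.12 beside -0.01 over all tested genes. At an unadjusted p below 0.05, 16 genes (18.4%) were lower and 0 higher, where 12.2% of all tested genes were lower and 10.5% higher. In 19 genes (21.8%) the 3 libraries at 8 h were all below the 3 at 0 h, where 13.8% of all genes were, and in 3 genes (3.45%) all above, where 12.3% were. By role the medians were -0.35 for the 7 NDUFAF assembly factors, -0.27 for complex II, -0.14 for complex V, -0.12 for complex I, -0.09 for complex III and -0.01 for complex IV. Scaling by library size alone, which moved the median of all tested genes from -0.01 to -0.11, put the median of the oxidative phosphorylation genes at -0.23. The 95% interval lay within 2-fold for 74 of 87 genes.

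The number of calls in DAOY at 8 h depended on the fit. With the trend of counts on GC content removed (a choice made after seeing the data) it was 9, and with all 18 libraries in 1 fit it was also 9, in each case all lower. These are 10.3% of the 87 genes, where 15.98% and 10.97% of all genes were called in the same fits. Genes called lower in both of these fits, besides NDUFAF1, included NDUFB5, NDUFV3 and NDUFA7 of complex I, SDHC of complex II, and ATP5S.

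The difference between the lines in the 8 h change was tested directly over all 18 libraries. It was called for 0 of 87 genes, where 0.0121% of 16482 tested genes were called, with 10 of the 87 (11.5%) below an unadjusted p of 0.05, all in the direction of a lower change in DAOY, where 4.75% of all genes were. DESeq2 and limma also called 0 of the 87, in fits that called 0.632% and 0.00607 to 0.0364% of all genes. NDUFAF1 had the smallest adjusted p, 0.222, with a difference of -1.05 (SE 0.28) on the log2 scale. NDUFV2 followed with -0.84 (SE 0.29, adjusted p = 0.340). Among positive values the smallest p belonged to SDHA (0.24, SE 0.30, adjusted p = 0.907) and NDUFS7 (0.34, SE 0.43, adjusted p = 0.909). The fall of NDUFAF1 in DAOY is therefore not shown to differ from the change in U87 mg.

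Fold changes of the oxidative phosphorylation genes moved with GC content, the share of G and C bases in a gene's transcripts, which ran from 33.6 to 67.6%. Over the tested ones the correlation of Log2(fold-change) with GC content at 2 h was -0.80 in U87 mg (n = 86) and 0.58 in DAOY (n = 87). At 8 h it was -0.28 in U87 mg and 0.17 in DAOY. Over all tested genes of the data it was -0.62 and 0.36 at 2 h and -0.13 and 0.09 at 8 h, so the trend was not particular to this group. These points share libraries and are given as a description. At 2 h in U87 mg the 29 genes of lowest GC content had a median of 0.05 and the 29 of highest GC content a median of -0.37. After removal of the trend the correlations over the oxidative phosphorylation genes were between -0.10 and 0.05. In DAOY 0 h replicate 0 the high GC genes sat furthest below the low GC genes, by -0.93 on the log2 scale relative to the mean of the line, where the other DAOY libraries ranged from -0.19 to 0.59. Without that library NDUFAF1 remained called in DAOY at 8 h (adjusted p = 0.0334). There were 3 calls in all, 3.41% of the oxidative phosphorylation genes, where 5.40% of all genes were called.

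**Figure D4:**
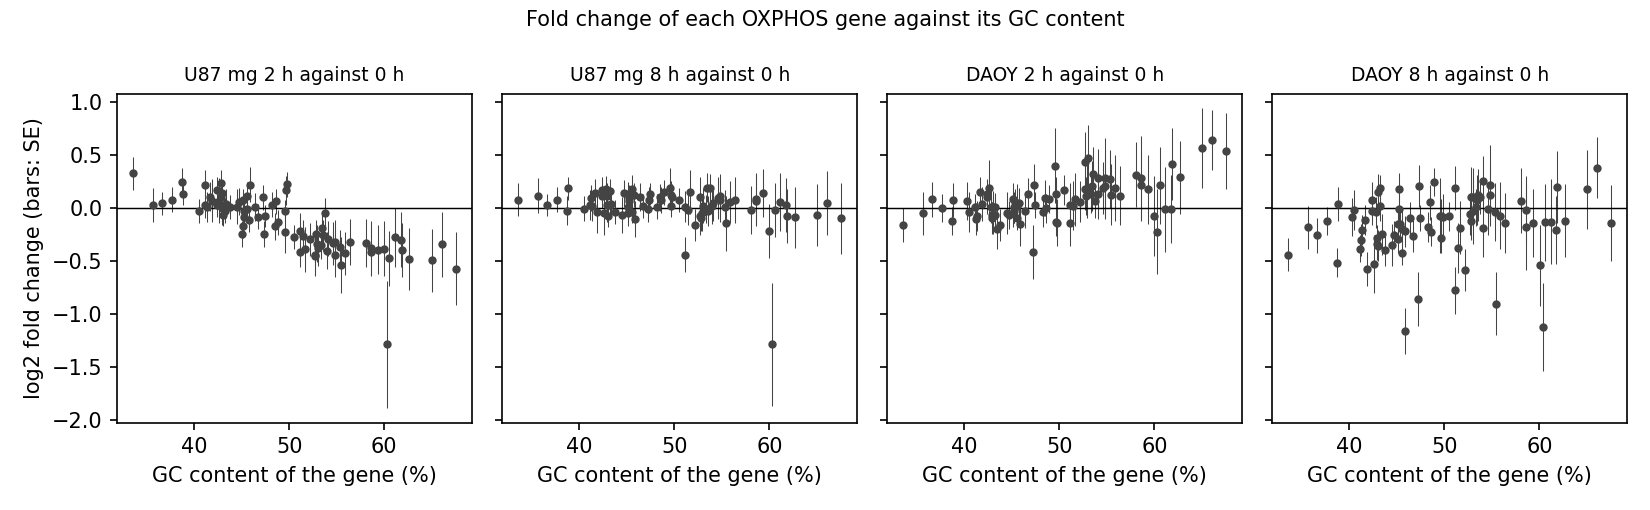
Log2(fold-change) of each tested oxidative phosphorylation gene (points, bars are 1 SE) against the GC content of its transcripts in percent, in the 4 dcEF comparisons. At 2 h the points fall with GC content in U87 mg (correlation -0.80) and rise in DAOY (0.58), and at 8 h the slopes are weaker (-0.28 and 0.17).

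Assembly factors outside the NDUFAF name also included genes that fell in DAOY at 8 h. Of 41 such factors for complexes I to V, 4 (ATPAF1, LYRM7, SDHAF4 and TIMMDC1) were called lower and 0 higher, where 3.5% of all tested genes were called lower, and their median Log2(fold-change) was -0.29. ATPAF1, which helps to build the catalytic head of complex V, went from 59.8, 53.9 and 48.2 CPM to 35.5, 35.1 and 31.4 CPM (Log2(fold-change) -0.67, SE 0.15, adjusted p = 0.0296). LYRM7, which helps to insert the iron-sulphur protein of complex III, went from 79.9, 57.4 and 50.3 CPM to 39.0, 37.2 and 29.8 CPM (-0.82, SE 0.19, adjusted p = 0.0356). TIMMDC1, which acts with NDUFAF1 in building the membrane arm of complex I, went from 46.9, 52.5 and 59.6 CPM to 34.2, 33.5 and 34.8 CPM (-0.63, SE 0.14, adjusted p = 0.0302). SDHAF4, which acts on the flavoprotein of complex II, was a low gene that went from 5.12, 3.98 and 3.44 CPM to 1.93, 1.74 and 1.35 CPM (-1.31, SE 0.31, adjusted p = 0.0378). In each of the 4 genes the libraries at 8 h were all below those at 0 h. In other fits the share of all genes called lower by the same fit is given in brackets. The 4 calls became 2 without DAOY 0 h replicate 0 (ATPAF1 and TIMMDC1, 2.84%) and 1 without DAOY 0 h replicate 2 (LYRM7, 1.27%). They became 0 without each of the other 4 DAOY libraries of 0 h and 8 h (0.102 to 2.52%). With only the 6 libraries compared the count was 0 (0.705%). With the GC trend removed it was 10 lower (7.87%) and 1 higher, where 8.12% of all genes were called higher. DESeq2 called 7 lower (4.95%) and 1 higher, where 4.49% of all genes were called higher. The fit without a filter called LYRM7 alone (1.99%), and that of protein coding rows called ATPAF1 alone (2.16%). Limma at either pseudocount called 4 lower (2.73 and 2.72%), COX20, SDHAF3, SDHAF4 and TIMMDC1, and not ATPAF1 or LYRM7.

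The other gene groups around the respiratory chain in DAOY at 8 h were as follows. All 13 mtDNA messenger RNAs had positive values, with a median of 0.54, and 0 were called (the smallest adjusted p was 0.0815, for MT-ND3). Of 77 mitochondrial ribosomal protein genes 5 were called lower and 1 higher, where 3.5% of all tested genes were called lower and 2.345% higher, with 66 negative values and a median of -0.29. The 84 tested cytosolic ribosomal protein genes had a median of 0.15 with 0 calls. Among 14 tested regulators of mitochondrial gene expression, TFB1M, which modifies the small ribosomal RNA of mitochondria, was called lower at 14.6, 12.6 and 13.5 CPM at 0 h against 7.64, 4.87 and 6.13 CPM at 8 h (-1.12, SE 0.23, adjusted p = 0.0235), and no other one was called, 1 of 14 where 5.85% of all genes were called. The 14 citric acid cycle genes (median -0.24), the 7 carrier and channel genes (median -0.06) and 5 subunits or partners outside the name rule, among them CYCS (median -0.03), gave 0 calls. None of these lists gave a call in U87 mg at either time or in DAOY at 2 h. At 2 h 0% of all tested genes were called in each line, so no list could give a call. In U87 mg at 8 h 1.72% were.

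Before exposure the lines differed in 37 of 87 oxidative phosphorylation genes (42.5%), 16 higher and 21 lower in DAOY, where 60.7% of the 16482 genes tested over all 18 libraries differed (32.8% higher and 27.9% lower). With a Log2(fold-change) of at least 1 in size the count was 12 (13.8%), 4 higher and 8 lower, where 41.2% of all genes were called. Here CPM are scaled over all 18 libraries. Complex I had 5 genes higher and 13 lower in DAOY, complex II 2 higher, complex III 1 higher and 2 lower, complex IV 2 higher and 2 lower, complex V 5 higher and 2 lower, and the NDUFAF assembly factors 1 higher and 2 lower.

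The largest difference was COX7B2, a paralog of the complex IV subunit COX7B, which had 266 to 390 counts in every DAOY library and at most 1 count in every U87 mg library. At 0 h it stood at 39.5, 28.4 and 37.2 CPM in DAOY and at 0 CPM in each U87 mg library. Against the limit that a count of 0 allows (3 counts per library, counting error only) it was at least 117-fold higher in DAOY. COX7B was present in both lines, at 135, 122 and 104 CPM in U87 mg and 114, 87.2 and 101 CPM in DAOY. Per length, COX7B2 reached 165 ± 48.3 TPM and COX7B 345 ± 72.3 TPM in DAOY at 0 h (SD, n = 3). COX7B2 lies on chromosome 4 at 46734827 to 46909235 on the minus strand and COX7B on chromosome X at 77899438 to 77907373 on the plus strand (GRCh38, GENCODE 29). The longest annotated coding sequences of the pair, read from GENCODE 29, are shown because the separation of their reads rests on them, with their longest identical stretch in capitals.
COX7B: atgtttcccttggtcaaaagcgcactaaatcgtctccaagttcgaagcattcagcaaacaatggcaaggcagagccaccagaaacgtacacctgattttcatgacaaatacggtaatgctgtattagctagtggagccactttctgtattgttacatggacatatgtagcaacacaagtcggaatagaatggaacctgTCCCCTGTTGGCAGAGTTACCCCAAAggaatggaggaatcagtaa
COX7B2: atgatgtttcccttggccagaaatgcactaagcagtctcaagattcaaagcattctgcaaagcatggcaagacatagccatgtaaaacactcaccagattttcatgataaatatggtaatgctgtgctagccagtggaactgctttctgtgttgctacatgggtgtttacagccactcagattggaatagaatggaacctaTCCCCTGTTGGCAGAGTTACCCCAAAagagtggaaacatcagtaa
The sequences are 243 and 246 bases long, 192 of 243 aligned bases (79.0%) are identical, and the capitals mark 26 identical bases. The pair shares 0 stretches of 31 bases over all annotated transcripts, the default length that Kallisto matches, so their counts can be separated.

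A further 3 genes were more than 2-fold higher in DAOY. ATP5S, named as subunit s of complex V, was at 27.7, 25.6 and 25.1 CPM in DAOY and 9.19, 8.57 and 7.39 CPM in U87 mg (Log2(fold-change) 1.64, SE 0.16, adjusted p = 1.65e-07). SDHD, a membrane anchor of complex II, was at 109, 90.01 and 110 CPM against 40.4, 30.7 and 38.6 CPM (1.49, SE 0.13, adjusted p = 2.62e-08). NDUFA12, an accessory subunit of complex I, was at 89.8, 68.5 and 87.2 CPM against 36.5, 33.0 and 28.7 CPM (1.32, SE 0.14, adjusted p = 2.52e-07). None of the groups overlapped. The named genes of this comparison were picked by their called difference, so separate groups here and below are description and not further support. NDUFB5 (0.84, SE 0.14), COX7A2 (0.79, SE 0.13), the assembly factor NDUFAF4 (0.63, SE 0.19) and NDUFA5 (0.51, SE 0.17) completed the 8 largest on the higher side. The call of NDUFB5 was lost when only protein coding transcripts were counted (0.42, adjusted p = 0.229), as was that of NDUFA5 (0.42, adjusted p = 0.0506). NDUFA5 also lost its call with only the 6 libraries compared (0.55, adjusted p = 0.0546) and without U87 mg 0 h replicate 1, U87 mg 0 h replicate 2 or DAOY 0 h replicate 0 (0.38, 0.43 and 0.32, adjusted p = 0.0776, 0.0714 and 0.0976). NDUFAF4 lost its call without DAOY 0 h replicate 2 (0.42, adjusted p = 0.0650).

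In all, 8 genes were more than 2-fold lower in DAOY. NDUFAF3, an assembly factor for the peripheral arm of complex I, was at 2.94, 4.97 and 4.87 CPM in DAOY and 10.6, 24.2 and 17.0 CPM in U87 mg (Log2(fold-change) -2.01, SE 0.32, adjusted p = 3.41e-05). NDUFC1, a small accessory subunit of complex I, was at 11.6, 16.8 and 17.6 CPM against 53.7, 48.3 and 52.4 CPM (-1.74, SE 0.16, adjusted p = 7.04e-08). For NDUFC1, 82.9% of counts fell on transcripts annotated as processed transcripts and 14.8% on protein coding ones. Neither gene's groups overlapped.

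ATP5G1 is 1 of the 3 genes that encode subunit c of the complex V rotor. It was at 6.89, 12.1 and 11.1 CPM in DAOY and 29.1, 34.8 and 33.3 CPM in U87 mg (Log2(fold-change) -1.68, SE 0.25, adjusted p = 1.44e-05). The other two genes of subunit c were higher in level and not called, with ATP5G2 at 190 ± 60.4 TPM in U87 mg and 184 ± 71.3 TPM in DAOY, and ATP5G3 at 230 ± 29.8 and 274 ± 58.7 TPM, beside 138 ± 11.6 and 39.7 ± 14.1 TPM for ATP5G1. The remaining 5 were NDUFS8 (a core subunit of complex I, -1.28, SE 0.34), NDUFA3 (-1.26, SE 0.35), UQCR10 (a small subunit of complex III, -1.24, SE 0.29), NDUFB8 (-1.08, SE 0.23) and ATP5E (subunit epsilon of complex V, -1.04, SE 0.13), with adjusted p from 2.17e-06 to 0.00495. The groups of NDUFS8 overlapped, those of the other 4 did not. All 5 stayed called in every other fit. In some fits they were less than 2-fold lower (NDUFB8 to -0.82, ATP5E to -0.90, NDUFS8 to -0.95, UQCR10 to -0.96, NDUFA3 to -0.997). In DAOY each of the 5 was lowest in 0 h replicate 0. There high GC genes had a median of -0.76 and low GC genes of 0.17 on the log2 scale, relative to the mean of the line. The GC content was 62.6% for NDUFS8, 61.2% for NDUFA3, 53.0% for NDUFB8, 49.5% for UQCR10 and 38.8% for ATP5E. Whether GC content bears on these low values was not tested. Between the lines Log2(fold-change) correlated with GC content at -0.29 over the 87 genes and -0.03 over all tested genes.

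**Figure D5:**
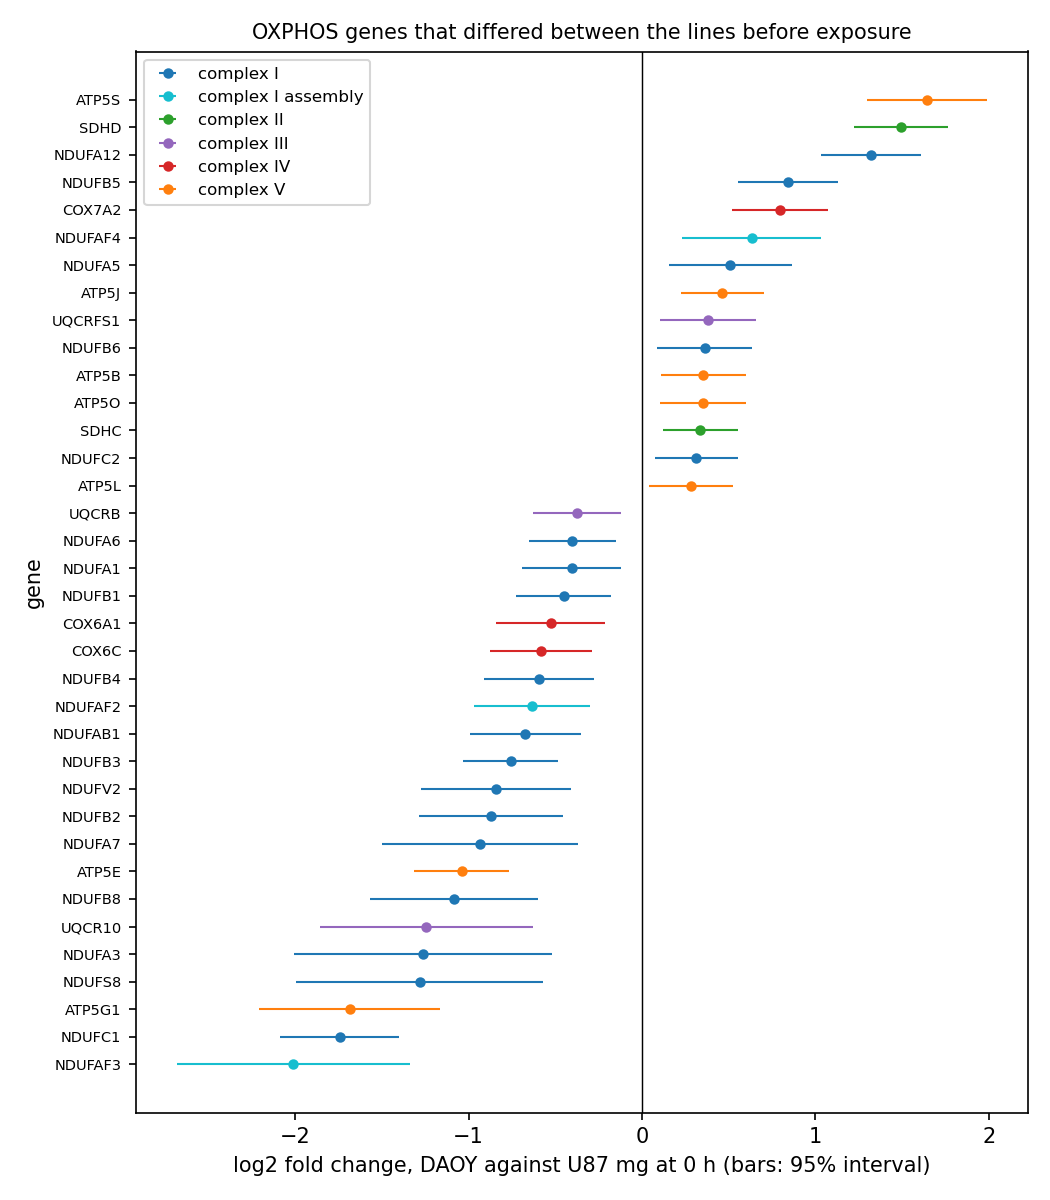
Log2(fold-change) of DAOY against U87 mg at 0 h with its 95% interval for the 36 oxidative phosphorylation genes called other than COX7B2, coloured by role. Values run from -2.01 (NDUFAF3) to 1.64 (ATP5S), and 13 of the 21 genes on the lower side are complex I subunits.

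The remaining paralog pairs were led by 1 form in both lines. COX4I1 (231 ± 66.4 TPM in U87 mg and 191 ± 86.9 TPM in DAOY at 0 h), COX6A1 (462 ± 52.0 and 369 ± 68.5 TPM), COX6B1 (190 ± 51.3 and 221 ± 137 TPM), COX8A (171 ± 64.3 and 117 ± 56.8 TPM) and NDUFA4 (606 ± 50.3 and 649 ± 162 TPM) are the widely used forms. Apart from COX6A1, which was called lower in DAOY, these did not pass the test between lines. COX7A2 was at 406 ± 48.0 TPM in U87 mg and 1052 ± 513 TPM in DAOY, a larger ratio than in counts, with most of its spread from DAOY 0 h replicate 0.

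Among other genes of the pathway, 21 of 41 assembly factors outside the NDUFAF name differed between the lines at 0 h (9 higher and 12 lower in DAOY), where 60.7% of all tested genes did. The 3 most changed on each side by fold were COA7 (1.60), UQCC2 (1.33) and SDHAF3 (1.30) on the higher side and COA3 (-1.44), UQCC1 (-1.41) and COX20 (-1.07) on the lower side. Of 15 regulators 9 differed, beside the same 60.7% of all genes: 5 were higher, led by the coactivators PPARGC1A (2.34, SE 0.23) and PPARGC1B (2.22, SE 0.26) and the mitochondrial transcription factor TFB2M (1.59, SE 0.17), and 4 were lower, led by ESRRG (-1.91, SE 0.69), MYC (-1.31, SE 0.17) and TFB1M (-1.09, SE 0.19). Outside the name rule, ATPIF1, the inhibitor of complex V, was lower in DAOY (-1.38, SE 0.12), as was USMG5 (-0.73, SE 0.15), and CYCS, which encodes cytochrome c, was higher (0.84, SE 0.15).

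What the genes shared beyond their names was described from the reference. Their transcripts were short, with a median length of 789 bases against 1702 over all genes, and the median GC content was 49.1%. RefSeq promoters (GRCh38.p14, the 250 bases before the start) were matched for 77 of the 96 genes, and a gene with several starts was counted once. The letters CCGGAAGT, bound by ETS factors such as GABP, stood on either strand before a start of 11 of these genes (14.3%) and of 4.13% of all 27305 genes with promoters of the same length. The letters CGCATGCG, the core bound by NRF1, stood in 10 (12.99%, against 2.14%) and the YY1 letters AAGATGGC in 1 (1.30%, against 1.64%). A match is a string of letters and not a shown site. None of the 3 strings contains another. CpG pairs had a median of 18 per gene, against 11 over all. Over the 86 genes with at least 1000 counts, a median of 90.7% of a gene's counts fell on protein coding transcripts, and in 14 of them less than 50% did.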

How the data were processed

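Polyadenylated RNA from 18 samples was sequenced with a stranded kit. The authors trimmed the reads and ran Kallisto 0.43.0 in single-end mode on GENCODE 24 transcripts (GRCh38.p5), with Sleuth 0.28.1 in R 3.2.1, and whether Kallisto's strand option was set is not given in the sources used here. They deposited estimated counts per transcript and TPM per transcript, 1 column per sample. Their columns of comparisons (p-values, q-values and fold changes) were not used. The members and lists were chosen with earlier results of these data known.

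Transcript values were summed by gene name, and the estimated counts were rounded. In edgeR 4.0.16, genes were filtered with filterByExpr, scaled by TMM and tested with the quasi-likelihood test on the 9 libraries of a line, or on all 18 for the comparison of lines and of their 8 h changes, with Benjamini-Hochberg adjustment over all tested genes. Group means are mean ± SD. Genes were named by rule: up to 8 called genes per direction and comparison by size of change, or the 2 with the smallest p where fewer than 2 were called, the highest and lowest gene of a role, the paralogs, and up to 3 called genes per direction of each other list. The fit was tested on simulated data. Alternatives were DESeq2 1.42.0, limma 3.58.1 on log2(TPM + 1) and log2(TPM + 0.1), other filters and scalings, only protein coding rows, other sample sets, the replicate number as a block, each library left out, and, added after seeing the data, removal of the trend on GC content (lowess, span 0.3). GC content came from GENCODE 29 transcripts (99.2% of transcripts matched). Counts of 8341976 to 15610886 per library set the precision, and intervals at 0 counts cover counting error only. No libraries of a group agreed within sampling noise. Some items are not reported here.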

Additional observations from a re-analysis of the deposited data

How the results depend on the processing

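The count of oxidative phosphorylation genes called in DAOY at 8 h was 1 in the reported fit (5.85% of all genes called) and, with the share of all genes called by the same fit, 6 with DESeq2 (9.43%), 3 with limma at either pseudocount (3.66 and 3.605%), 4 without a filter (3.66%, 1 of the 4 higher), 2 with at least 10 counts in every sample (6.76%), 7 with scaling by library size only (7.61%), 9 with the GC trend removed (15.98%), 0 with only the 6 samples compared (1.39%) and 9 with all 18 samples (10.97%). It ranged from 0 to 3 when each library was left out (0.197 to 5.40%). The unfiltered count held NDUFA4L2 and UQCRHL, each high in a single library. For the difference between lines in the 8 h change the unfiltered fit gave 2 calls (0.49% of all genes called). In U87 mg at 2 h the count ranged from 0 to 11 with each library left out (0 to 8.38%). Between the lines at 0 h, 37 genes became 12 with a Log2(fold-change) of at least 1 required (41.2% of all genes). The count was 23 with only the 6 samples compared (51.6%), 45 with the GC trend removed (67.4%) and 39 with DESeq2 (60.7%). Limma also gave 39 (55.8 and 55.4%), protein coding rows only 31 (58.7%) and the unfiltered fit 30 (33.6%). With each library left out it was 31 to 43 (54.7 to 59.2%).

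Values of named genes that changed sign were all uncalled. NDUFS1 in DAOY at 2 h was 0.0071 without DAOY 0 h replicate 0 (from -0.2745 to 0.0071 with each library left out), and NDUFA10 in DAOY at 8 h was -0.17 with protein coding rows only. In the difference between lines, SDHA was -0.0318 and -0.0321 with limma at pseudocounts of 1 and 0.1, and NDUFS7 was -0.033 and -0.039 with limma, -0.0141 with the GC trend removed, -0.25 with protein coding rows only and -0.1791 without U87 mg 0 h replicate 1 (up to 0.604 with another library left out). The causes were not tested. The median changes of the oxidative phosphorylation genes moved by less than the spread between replicates under every alternative run. That spread, the SD of library medians, was 0.11 to 0.23 on the log2 scale. The medians themselves were near or below it. At 8 h they were 0.04 beside a spread of 0.11 in U87 mg and -0.12 beside 0.22 in DAOY. The median difference between the lines in the 8 h change was -0.18 beside 0.17. Moving by less than the spread therefore does not show that a median is stable, and some medians changed sign. Other fits took the U87 mg median at 8 h to -0.05 and that of DAOY against U87 mg at 0 h to 0.02. Leaving out a library took the DAOY median at 2 h to -0.02.

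Libraries of equal replicate number were not treated as pairs. Deviations of same-numbered libraries from their group means correlated from -0.20 to 0.44 in DAOY and -0.17 to 0.26 in U87 mg. Those of differently numbered libraries correlated from -0.27 to 0.45 in DAOY and -0.25 to 0.27 in U87 mg. With 3 libraries per group these values cannot decide whether equal numbers mark pairs. With the replicate number as a block the DAOY count at 8 h was 1 (NDUFAF1, adjusted p = 0.0321). The 4 other assembly factors were not called in that fit, which called 2.79% of all genes. With 3 libraries per group, the median SE of 0.14 in U87 mg and 0.19 in DAOY on the log2 scale limits what could be called.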
